A study of Mus musculus with 141 samples.

Results

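The clock output transcription factors Dbp, Tef, Hlf, Nfil3, Bhlhe40 and Bhlhe41 were followed in liver, lung and kidney. These 6 genes were taken by name from the 24423 genes listed for each library, and all 6 were listed in every library. The libraries are RNA-seq of total RNA from 47 strains of the Collaborative Cross (CC), a panel of recombinant inbred mouse lines bred from a common set of founders, with 1 adult male of 8 to 12 weeks per strain and 47 libraries per tissue. Every mouse was kept in the same way. The diet was NTP 2000 wafers, the light-dark cycle was 12-h, and the mice spent 6 h a day, 5 days a week, in chambers with clean air over 2 weeks before nembutal (100 mg/kg) and exsanguination. No group differed in treatment, so the comparisons are between tissues and across strains. Each strain is 1 mouse, and the genotype, the individual and the handling of that mouse cannot be told apart. The hour of death was not given in the sources used here.

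DBP, TEF and HLF are the PAR bZIP factors, activators that bind D-box elements, and their own genes are driven through E-boxes by the CLOCK:BMAL1 dimer at the core of the oscillator. NFIL3 (also E4BP4) is a related bZIP repressor that competes for the D-box and is controlled through RORE elements, which ROR activators and the REV-ERB repressors (Nr1d1, Nr1d2) share. BHLHE40 and BHLHE41 (DEC1 and DEC2) are E-box repressors that act on the same sites as CLOCK:BMAL1. In liver and kidney, the PAR bZIP factors are known for driving genes of drug and heme metabolism.

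The genes lie on 5 chromosomes in build NCBIM37 (mm9), the build of the deposited values. Dbp is at chr7:52960458-52965525 on the plus strand, Tef at chr15:81632851-81657291 on the plus strand, and Hlf at chr11:90197849-90252231 on the minus strand. Nfil3 is at chr13:53062578-53076442 on the minus strand, Bhlhe40 at chr6:108610623-108616919 on the plus strand, and Bhlhe41 at chr6:145806763-145814078 on the minus strand. Dbp shares 689 bases with Sphk2, which is annotated on the opposite strand. Bhlhe40 and Tef share 306 and 193 bases with long non-coding RNAs on the opposite strand. Whether reads were counted by strand was not given in the sources used here.

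The promoter windows of the PAR bZIP genes and Nfil3 are shown because Dbp was correlated with Nfil3 and with Tef across strains. Hlf is shown as a PAR bZIP gene, and no correlation of Hlf with Dbp, Tef or Nfil3 passed. Each window runs from 250 bases before to 50 bases after a start site in RefSeq (GRCm38.p6, a later build than that of the values), is written 5′ to 3′ on the gene's strand, and has motif matches in capitals. The letters searched were CACGTG (E-box), TTANGTAA (D-box) and NNAGGTCA (RORE core), on both strands. Windows were found for 5 of the 6 members.
Dbp (chr7:45704997-45705296, plus strand): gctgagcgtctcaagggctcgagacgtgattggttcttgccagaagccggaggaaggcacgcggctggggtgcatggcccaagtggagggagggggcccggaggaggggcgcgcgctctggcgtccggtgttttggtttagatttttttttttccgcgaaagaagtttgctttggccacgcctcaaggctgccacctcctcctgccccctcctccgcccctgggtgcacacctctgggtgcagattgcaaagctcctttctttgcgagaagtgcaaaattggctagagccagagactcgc
Tef window 1 (chr15:81802423-81802722, plus strand): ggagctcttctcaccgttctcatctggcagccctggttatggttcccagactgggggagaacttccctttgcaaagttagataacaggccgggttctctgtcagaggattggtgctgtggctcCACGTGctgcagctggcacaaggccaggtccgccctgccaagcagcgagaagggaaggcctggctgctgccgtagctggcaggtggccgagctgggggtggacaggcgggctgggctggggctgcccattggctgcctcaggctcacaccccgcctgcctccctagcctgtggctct
Tef window 2 (chr15:81811164-81811463, plus strand): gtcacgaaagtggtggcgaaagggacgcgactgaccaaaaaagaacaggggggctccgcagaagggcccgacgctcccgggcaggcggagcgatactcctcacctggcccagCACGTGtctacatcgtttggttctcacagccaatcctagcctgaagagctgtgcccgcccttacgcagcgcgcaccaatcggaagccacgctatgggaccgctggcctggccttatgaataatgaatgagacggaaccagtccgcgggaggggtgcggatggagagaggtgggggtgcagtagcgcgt
Hlf (chr11:90390868-90391167, minus strand): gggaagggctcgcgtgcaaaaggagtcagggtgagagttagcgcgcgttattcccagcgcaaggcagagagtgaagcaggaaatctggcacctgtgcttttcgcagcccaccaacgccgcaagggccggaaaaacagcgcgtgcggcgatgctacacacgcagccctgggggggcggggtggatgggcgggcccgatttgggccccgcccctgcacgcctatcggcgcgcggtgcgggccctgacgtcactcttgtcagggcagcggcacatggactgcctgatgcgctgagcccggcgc
Nfil3 (chr13:52980990-52981289, minus strand): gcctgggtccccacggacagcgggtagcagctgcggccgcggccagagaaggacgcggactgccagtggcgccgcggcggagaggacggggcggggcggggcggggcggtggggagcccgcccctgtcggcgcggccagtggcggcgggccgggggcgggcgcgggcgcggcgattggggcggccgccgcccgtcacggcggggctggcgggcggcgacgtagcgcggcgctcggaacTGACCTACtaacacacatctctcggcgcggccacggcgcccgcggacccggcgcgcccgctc

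Both Tef windows held an E-box, the first starting 127 and the second 138 bases before the start site. The Nfil3 window held a RORE core on its reverse strand, 12 bases before the start site. The Dbp and Hlf windows held none of these letters, and the Bhlhe41 window, not printed, held an E-box 153 bases before its start site. Of all 32851 windows of this length, 7.15% held an E-box, 2.32% a D-box and 16.2% a RORE core. A match describes the letters of a window and is not a binding site.

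Total counts ranged from 1738046 to 42158454 per library, with a median of 9043226. The labelled tissues were separated by their markers in every library: the summed TPM (the authors' length-scaled transcript levels) of 4 hepatocyte markers was at least 31626 in liver and at most 7942 elsewhere, that of 4 alveolar type 2 markers at least 4585 in lung and at most 138 elsewhere, and that of 4 proximal tubule markers at least 29450 in kidney and at most 1632 elsewhere. Levels below are counts relative to library size (CPM) after TMM scaling, which sets the libraries on a common scale through the bulk of their genes, or TPM where genes are compared with each other. The lung library of strain CC015 stood apart: 10 genes held 91.7% of its counts, where the median lung library had 32.0%, and its TMM factor of 0.240 was the lowest in lung (median 1.94). Several results that may rest on CC015 are given without it too, an alternative chosen after seeing the data. In whole tissue, fewer cells of a type and less RNA per cell cannot be told apart.

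Of the 6 factors, Bhlhe40 was the most abundant per transcript length and Bhlhe41 was hardly detected. In TPM, the medians over 47 libraries in liver were 84.9 for Bhlhe40, 37.6 for Dbp, 12.1 for Hlf, 11.9 for Nfil3, 1.01 for Tef and 0.03 for Bhlhe41. In lung the medians were 55.8 for Bhlhe40, 50.3 for Dbp, 17.8 for Hlf, 7.72 for Nfil3, 2.77 for Tef and 0.16 for Bhlhe41. In kidney they were 59.5 for Bhlhe40, 42.6 for Dbp, 40.1 for Hlf, 4.21 for Nfil3 and 2.91 for Tef, and Bhlhe41 was at 0. The ranges of neighbours in this order overlapped over strains, except those of Tef and Bhlhe41 in liver and kidney. Bhlhe41 had at most 3 counts, the limit taken for a resolved value, in 44 of 47 liver, 26 of 47 lung and 46 of 47 kidney libraries. It did not pass the filter on low counts in any tissue, and the values of Bhlhe41 below are not resolved.

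Of the PAR bZIP genes, in TMM-scaled CPM, Dbp had its highest median in liver, and Hlf and Tef had theirs in kidney. Dbp in liver ranged from 4.02 to 91.8 CPM with a median of 43.2, in lung from 1.19 to 75.2 with a median of 19.2, and in kidney from 2.43 to 46.1 with a median of 24.3. The ranges of Dbp overlapped between all tissues, and the same strain, CC015, was lowest in each. Hlf had its median at 44.2 CPM in liver (range 21.4 to 80.1), 22.6 in lung (range 8.82 to 51.1) and 77.5 in kidney (range 38.7 to 138.9). Kidney exceeded lung for Hlf in all 47 mice. Tef was low, with medians of 2.54 CPM in liver (range 0.738 to 6.80), 2.41 in lung (range 0.936 to 16.2) and 4.26 in kidney (range 1.06 to 7.14), and its median count per library was 14, 32 and 37 in these tissues. The lung value of 16.2 CPM was that of CC037, and the next was 4.74. On TPM as deposited, Dbp had its lowest median in liver (37.6, beside 50.3 in lung and 42.6 in kidney). On that scale liver exceeded lung in 12 of 47 mice for Dbp and in 12 of 47 for Hlf.

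Both repressors were highest in liver. Nfil3 had a median of 14.8 CPM in liver (range 5.10 to 76.9), 3.21 in lung (range 1.61 to 9.96) and 2.66 in kidney (range 0.447 to 23.6). Bhlhe40 had a median of 167.2 CPM in liver (range 51.5 to 324.4), 38.0 in lung (range 20.3 to 70.9) and 58.5 in kidney (range 37.2 to 120.2). Within each mouse, liver exceeded both lung and kidney in 47 of 47 mice for Nfil3 and for Bhlhe40, although the ranges over strains overlapped. On TPM as deposited, liver exceeded lung in 37 mice and kidney in 41 mice for Nfil3, and in 34 and 33 mice for Bhlhe40.

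**Figure D1:**
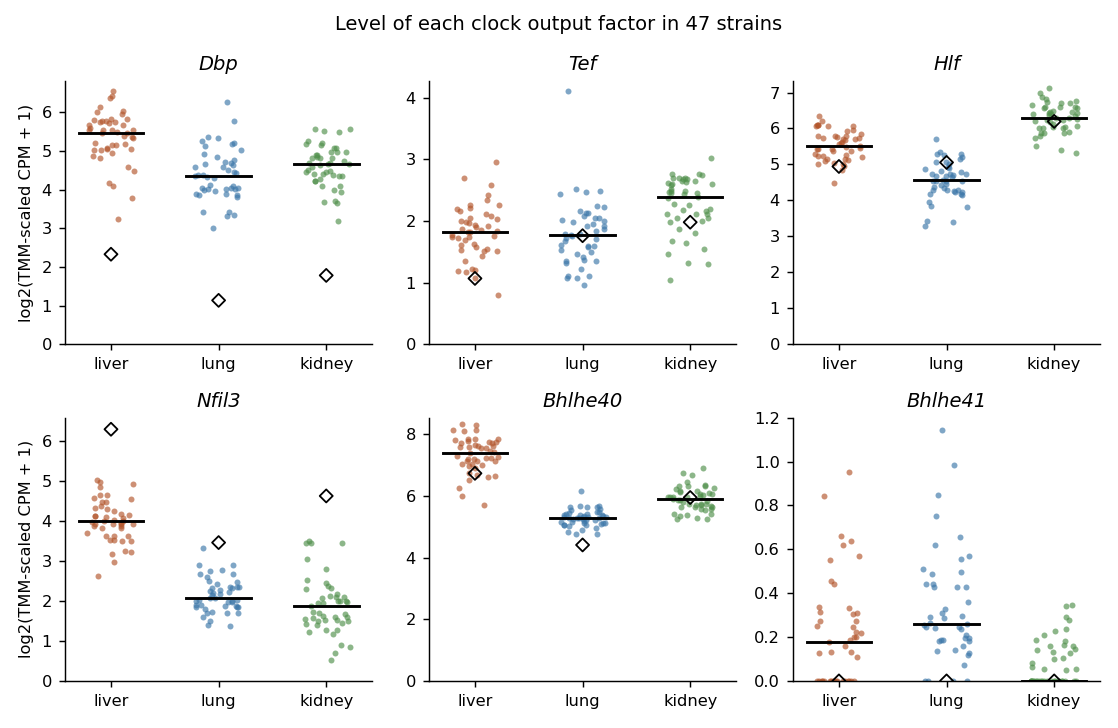
Level of each member in liver, lung and kidney as log2(TMM-scaled CPM + 1), with 1 point per strain, a bar at the median of 47 strains and an open diamond for strain CC015. On this scale strain CC015 sits lowest for Dbp and highest for Nfil3 in all 3 tissues.

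Which members differed between tissues was tested with limma-voom on 12127 genes that passed the filter, with strain as a block. A call needed q ≤ 0.1 and a log2 difference of 1 or more in either direction. Between liver and lung, 3 of the 5 members tested were called, beside 55% of all genes. Nfil3 was higher in liver by 2.12 ± 0.11 (log2, SE, limma-voom q = 1.87e-34), Bhlhe40 by 2.09 ± 0.08 (q = 9.5e-46) and Hlf by 1.01 ± 0.08 (q = 4.62e-21). The call of Hlf stood just above the fold threshold and was lost without the strain block (0.993), with edgeR's quasi-likelihood test (0.993, where Dbp at 1.01 was called), with no low-count filter (0.995), without CC032 and CC042 (0.991), with DESeq2 size factors (0.775) and with DESeq2 (0.744). Dbp was higher in liver by 0.95 ± 0.10 (limma-voom q = 8.94e-16), under the fold threshold, and the value for Tef was 0.03 ± 0.12 (q = 0.814). Between liver and kidney, 2 of 5 were called beside 36.4% of all genes: Nfil3 by 2.27 ± 0.11 (limma-voom q = 2.03e-36) and Bhlhe40 by 1.47 ± 0.08 (q = 3e-33), both higher in liver. Between lung and kidney, Hlf alone was called, 1 of 5 beside 46.1% of all genes, at -1.75 ± 0.08 (limma-voom q = 1.25e-37). Shares of members called near those of all genes say nothing particular about the members.

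These directions depended on the scaling. Scaled by total counts instead of TMM, the median log2 fold change of all genes was -1.43 for liver against lung, -0.95 for liver against kidney and 0.46 for lung against kidney, beside -0.05, -0.00315 and 0.04 with TMM. Of the genes called, 43.6%, 42.9% and 55.1% were higher in the first tissue with TMM, and 13.7%, 14.5% and 68.7% with total counts. The log2 fold change of Dbp then turned from 0.95 to -0.40 for liver against lung, from 0.75 to -0.20 for liver against kidney and from -0.20 to 0.19 for lung against kidney. That of Hlf for liver against lung turned from 1.01 to -0.37. Relative to the median of all genes the values moved less. A scaling factor shifts all genes of a library alike, so this was nearly fixed in advance and cannot decide between the scalings. For liver against lung, the difference from that median was 1.06 with both TMM and total counts for Hlf, and 2.17 and 2.26 for Nfil3. For Dbp between liver and kidney it was 0.75 with both. Nfil3 and Bhlhe40 were higher in liver than in lung and kidney, and Hlf was lower in lung than in kidney, under TMM, total counts and log2(TPM + 1). With total counts the log2 differences of liver and lung shrank to 0.83 for Nfil3 and 0.72 for Bhlhe40, under the fold threshold. For liver against kidney that of Bhlhe40 fell to 0.49, no longer called, while those of Hlf (-1.71) and Tef (-1.51) passed the threshold as lower in liver.

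**Figure D2:**
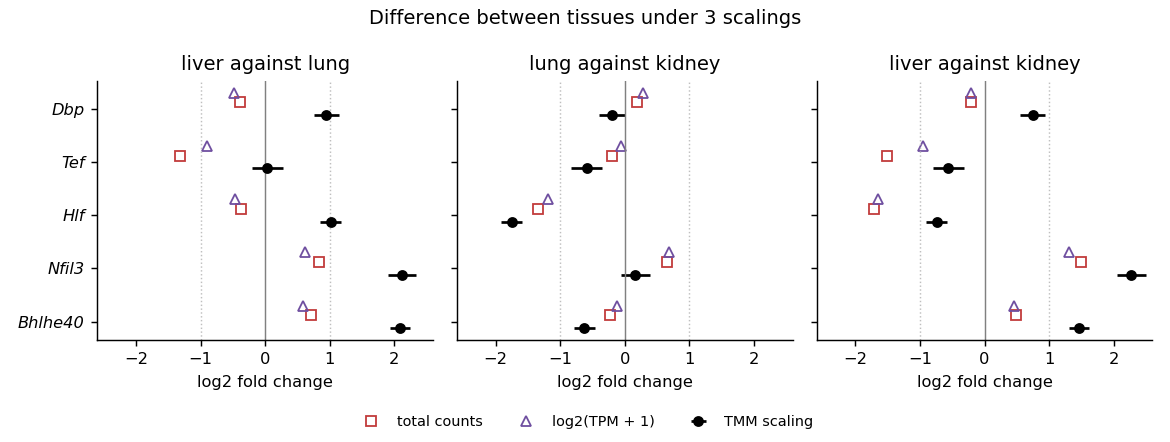
Log2 fold change of each member between tissues, in black with TMM scaling (bars are 2 SE), as red squares with total counts and as purple triangles on log2(TPM + 1), with dotted lines at the fold threshold of 1. Dbp changes side in all 3 panels, while Nfil3 and Bhlhe40 stay to the right of 0 in both liver panels.

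The core clock behind these factors was read from a list of 18 genes. Of 13 tested between tissues, 3 were called between liver and lung (1 higher and 2 lower in liver), 5 in the test of lung against kidney (4 higher and 1 lower in lung), and 6 in that of liver against kidney (5 higher and 1 lower in liver). Npas2, a partner of BMAL1, was lower in liver than in lung by 1.62 ± 0.21 (log2, SE, limma-voom q = 6.47e-12). Its median in liver was 0.424 CPM, and within liver alone it did not pass the filter, while it did in lung (1.88 CPM) and kidney (1.76 CPM). The liver value is thus near the floor, and the size of this difference is not resolved. The repressor Cry2 was higher in lung than in kidney by 1.36 ± 0.05 (limma-voom q = 3.75e-43) and higher in liver than in kidney by 1.43 ± 0.05 (q = 8.13e-45). These shares stand beside 55%, 46.1% and 36.4% of all genes called for liver against lung, lung against kidney and liver against kidney. Of the PAR bZIP targets, 6 of 7 tested were called for liver against lung (4 higher in liver), 3 for lung against kidney (2 higher in lung) and 4 for liver against kidney, all higher in liver. Of the other clock-controlled genes, 2 of 6 were called in each comparison. The values and calls of these lists are with TMM scaling alone. They were not counted with total counts or on TPM, where the median of all genes lay lower in liver and calls of members were lost. Per1 and Rorb were listed at 0 in the median library of each tissue, from uniquely aligned reads. Whether a listed 0 means that no RNA of the gene was present was not tested.

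Across strains, of the 5 members that passed the filter, Dbp was the most variable in liver and lung, and Nfil3 in kidney. Dbp had an SD of log2 CPM of 0.83 (liver), 0.90 (lung) and 0.72 (kidney), where the median SD of all genes tested was 0.41, 0.40 and 0.38. Of the genes tested, 80.6%, 89.3% and 80.8% had a lower SD than Dbp. Nfil3 had 0.65, 0.57 and 1.05 in these tissues, the last above 93.4% of genes. Bhlhe40 in lung was the least variable at 0.30. Counting error is part of these values, in particular for Tef and for Nfil3 outside liver. CC015 is part of them too. Its Dbp in lung was 1.19 CPM (next lowest 7.03), and its Nfil3 in kidney was 23.6 CPM (next highest 10.3). SDs without CC015 were not computed.

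Whether a strain with a high level in one tissue had a high level in another was asked with the correlation of rank inverse normal values of TMM-normalized TPM over 47 strains, with permutation p-values and with q adjusted over all genes tested in both tissues. Dbp was correlated between lung and kidney (r = 0.541, permutation p = 7e-05; Spearman's rho = 0.527, p = 0.00018; q = 0.00137) and between liver and lung (r = 0.451, permutation p = 0.00175; rho = 0.458, p = 0.00172; q = 0.022). Between liver and kidney its value was r = 0.318 (permutation p = 0.0309; rho = 0.296, p = 0.0451), which did not pass over all genes (q = 0.117). Nfil3 was correlated between lung and kidney (r = 0.423, permutation p = 0.00322; rho = 0.442, p = 0.00204; q = 0.0289). The background was high: 13.1% of 9028 genes were called with a positive r between liver and lung, 22.9% of 8967 between liver and kidney and 16.9% of 10503 between lung and kidney, with median r of 0.136, 0.182 and 0.151. The r of Dbp was exceeded by 6.42% of genes between liver and lung and by 3.57% between lung and kidney. In all, 3 of 15 correlations of the 5 members passed.

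The other correlations between tissues did not pass. Nfil3 had r = 0.260 between liver and lung (permutation p = 0.0787; rho = 0.192, p = 0.195; q = 0.278) and r = 0.195 between liver and kidney (permutation p = 0.189; rho = 0.151, p = 0.310; q = 0.377). Hlf had r = 0.330 between lung and kidney (permutation p = 0.0243; rho = 0.286, p = 0.0535; q = 0.122), r = 0.288 between liver and kidney (permutation p = 0.0499; rho = 0.323, p = 0.0272; q = 0.163) and r = 0.191 between liver and lung. The values of Tef lay between -0.038 and 0.142 and those of Bhlhe40 between 0.106 and 0.245. Without strain CC015, the r of Dbp was 0.494 between lung and kidney (q = 0.00794), 0.402 between liver and lung (q = 0.0612) and 0.237 between liver and kidney, and that of Nfil3 between lung and kidney was 0.343 and no longer passed (q = 0.114). Without the 2 strains farthest from the median of the first tissue, the r of Dbp was 0.629 for the lung and kidney pair and 0.533 for liver with lung, while that of Nfil3 between lung and kidney fell to 0.303 (q = 0.186). The call of Nfil3 was thus lost without those strains, while its r stayed above 0. Normalization mattered too, since on TPM without TMM scaling the r of Nfil3 between lung and kidney was 0.0889 (q = 0.871) and that of Dbp between lung and kidney 0.467 (q = 0.0372).

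Within a tissue, strains with more Dbp had less Nfil3. The correlation of the activator Dbp with the repressor Nfil3 was -0.631 in liver (permutation p = 2e-05; rho = -0.544, p = 8e-05; q = 0.00704), -0.474 in lung (permutation p = 0.00075; rho = -0.443, p = 0.00193; q = 0.0595) and -0.501 in kidney (permutation p = 0.0003; rho = -0.436, p = 0.00232; q = 0.0631). Here q is adjusted over the correlations of the 5 members with every gene tested in the tissue. Of these correlations, 2.04% of 47490 in liver, 2.87% of 64360 in lung and 1.29% of 56040 in kidney passed, and 7 of the 30 pairs of members over the 3 tissues did. Without strain CC015 the correlation of Dbp with Nfil3 was -0.58 in liver (q = 0.0102), -0.41 in lung (q = 0.149) and -0.44 in kidney (q = 0.129), and the calls in lung and kidney were lost. Without the 2 strains farthest from the median of Dbp it was -0.57, -0.44 (q = 0.218) and -0.35 (q = 0.276).

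**Figure D3:**
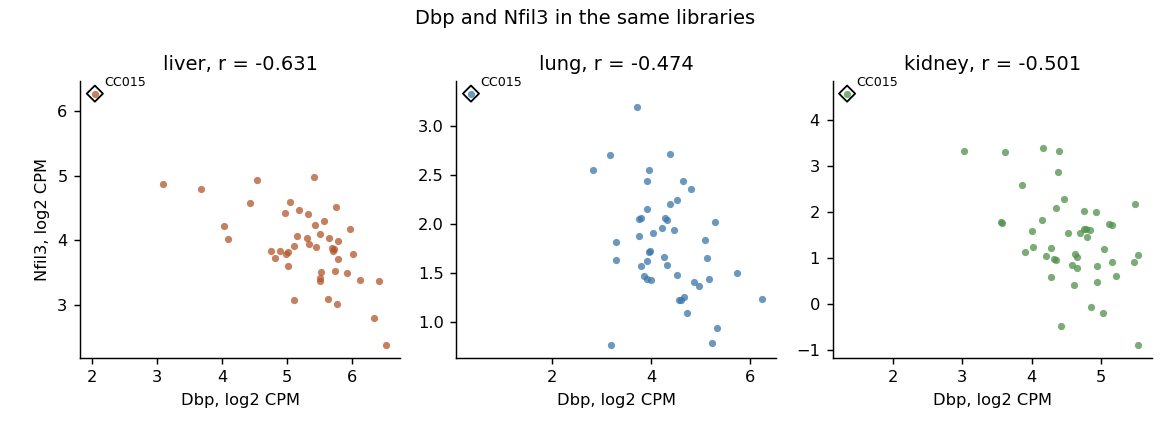
Level of Nfil3 against that of Dbp (both log2 of TMM-scaled CPM) in liver, lung and kidney, with 1 point per strain and strain CC015 marked by a diamond; r is that of the rank inverse normal values. The points run from upper left to lower right in each tissue, with r from -0.631 to -0.474.

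Strains with more Dbp had more Tef in liver and lung. Dbp and Tef were correlated in liver (r = 0.570, permutation p = 4e-05; rho = 0.502, p = 0.00043; q = 0.00983) and in lung (r = 0.515, permutation p = 0.00028; rho = 0.546, p = 0.00013; q = 0.0266), and had r = 0.276 in kidney (permutation p = 0.0591; q = 0.383). Without the 2 strains farthest from the median of Dbp, r was 0.44 in both liver (q = 0.14) and lung (q = 0.228), no longer past the threshold. Dbp and Hlf had r = 0.404 in liver, 0.321 in lung and 0.285 in kidney, and Tef and Hlf 0.372, 0.244 and 0.316, none of which passed over all genes. Bhlhe40 was correlated with Dbp in lung (r = 0.510, permutation p = 0.00021; rho = 0.515, p = 0.00023; q = 0.0285), a call lost without CC015 (r = 0.44, q = 0.108), and with Hlf in kidney (r = 0.521, permutation p = 0.00019; rho = 0.556, p = 0.0001; q = 0.0398). Without the 2 strains farthest from the median of Hlf, the kidney value was 0.45 (q = 0.148), no longer past the threshold. Hlf and Bhlhe40 had r = 0.412 in lung (permutation p = 0.00399; q = 0.119), which passed without CC015 (r = 0.50, q = 0.0471), and 0.310 in liver.

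**Figure D4:**
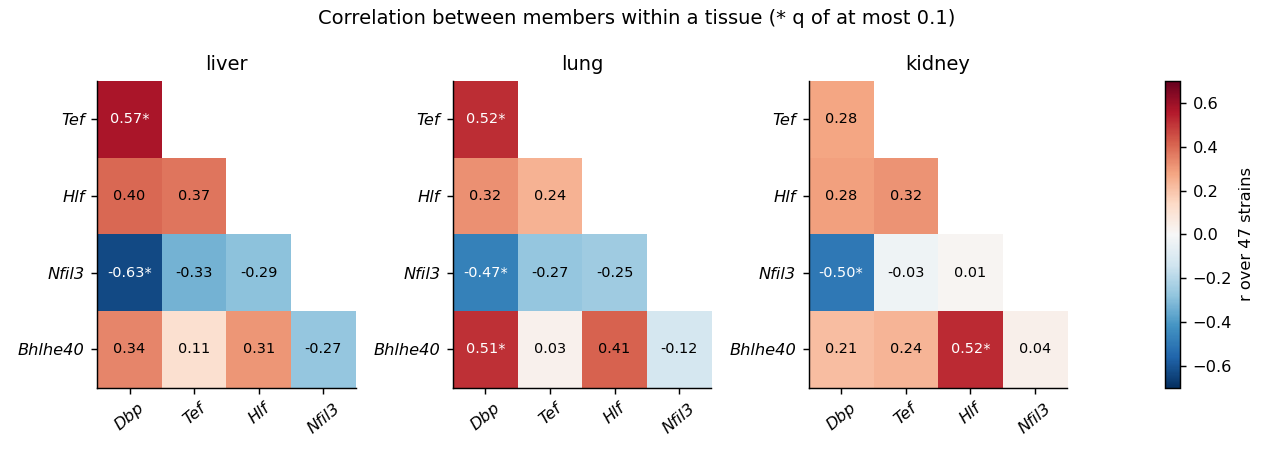
Pearson r of rank inverse normal values between members over 47 strains in liver, lung and kidney, with a star at q of at most 0.1 over all genes tested. Values of Dbp with Nfil3 are the lowest in each tissue, from -0.63 in liver to -0.47 in lung.

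The pair values moved with the scaling. On TPM without TMM scaling the 5 members had a median correlation with all genes of 0.341 (liver), 0.418 (lung) and 0.322 (kidney), against 0.00385, -0.00121 and -0.0161 with TMM. On that scale Dbp and Nfil3 had r of -0.19, -0.06 and -0.16 in liver, lung and kidney, still below 0 but not called. There 21 of the 30 pairs were called, beside 31602 of 47490 correlations in liver, 51229 of 64360 in lung and 34490 of 56040 in kidney, so this count is near the background. The correlations with total counts were small for the 5 members, with r from -0.107 to 0.269. With the TMM factor they ran from -0.258 (Tef in kidney, permutation p = 0.0800) to 0.298 (Nfil3 in kidney, permutation p = 0.0421), in a family of 18 tests unadjusted. The part of the scaling factor in the pair values was not tested. Whether a pair differed between tissues was tested by permuting tissue labels within strains. None of 45 differences, those of Bhlhe41 included, passed with Benjamini-Hochberg adjustment over the 45, and 2 had an unadjusted permutation p under 0.05, both with Bhlhe41. The smallest, between lung and kidney for Nfil3 and Bhlhe41, had p = 0.0074 and q = 0.333 and involves values that were not resolved. For Dbp and Tef, the difference of liver and kidney was 0.294 (permutation p = 0.0894, q = 0.644).

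Genes that moved with each member across strains were sought with limma-voom in each tissue, with the rank inverse normal level of the member as the covariate, so that a slope is the log2 change per SD of the member. With Dbp, 213 of 9498 genes in liver (2.24%), 1225 of 12872 in lung (9.52%) and 1154 of 11208 in kidney (10.3%) passed at q ≤ 0.1, of which 119, 640 and 668 rose. Among the core clock genes, 4 of 12 tested in liver passed (3 rose and 1 fell), 6 of 15 in lung (4 rose and 2 fell) and 3 of 12 in kidney (2 rose and 1 fell). Ciart, a repressor of CLOCK:BMAL1, rose with Dbp in all 3 tissues, by 0.79 ± 0.17 in liver (SE, limma-voom q = 0.00482), 0.27 ± 0.08 in lung (q = 0.0523) and 0.61 ± 0.09 in kidney (q = 1.9e-05). Arntl, which encodes BMAL1, fell with Dbp by 0.95 ± 0.15 in liver (limma-voom q = 8.9e-05) and by 0.35 ± 0.13 in lung (q = 0.0998), and did not pass the filter in kidney. Nr1d1, which encodes REV-ERBα, rose by 0.44 ± 0.09 in lung (limma-voom q = 0.00979) and 0.47 ± 0.09 in kidney (q = 0.00187), and had a slope of 0.30 ± 0.12 in liver (q = 0.28). The period gene Per2 rose in liver by 0.45 ± 0.07 (limma-voom q = 8.9e-05), and Npas2 fell in lung by 0.43 ± 0.10 (q = 0.0191). Without strain CC015, 681 genes passed in lung, and 5, 4 and 2 core clock genes in liver, lung and kidney. Arntl in lung was then not called.

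**Figure D5:**
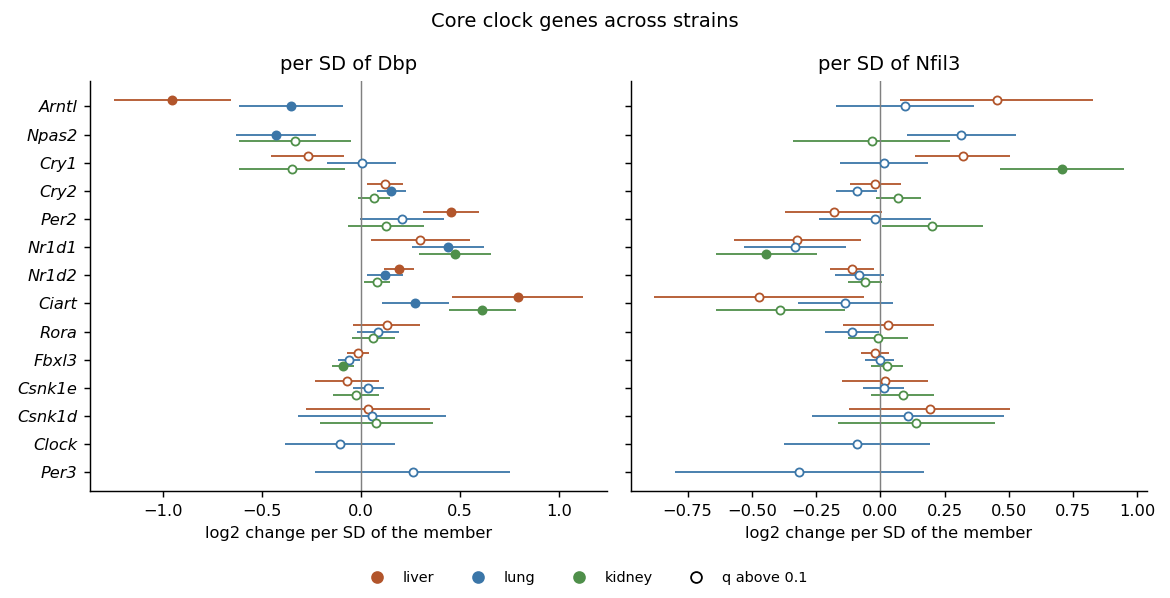
Slope of core clock genes, as log2 change per SD of Dbp (left) and of Nfil3 (right), in liver, lung and kidney. Points are limma-voom estimates with bars of 2 SE, filled at q of at most 0.1. Arntl lies left of 0 for Dbp and Ciart right of 0 in every tissue where it was tested, and both estimates have the opposite sign for Nfil3, with q above 0.1.

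Other lists moved with Dbp in part. Of the genes known as PAR bZIP targets or with D-boxes, 1 of 7 passed in liver, 1 of 6 in lung and 1 of 6 in kidney, all rising. They were Alas1, the rate-limiting enzyme of heme synthesis, at 0.60 ± 0.15 in liver (SE, limma-voom q = 0.0199), Pdxk, a vitamin B6 kinase, at 0.16 ± 0.04 in lung (q = 0.0191) and Cyp2a5, a coumarin hydroxylase, at 0.49 ± 0.18 in kidney (q = 0.0882, not called without CC015). The median slope of the tested genes of this list was 0.26, 0.10 and 0.11, beside -0.00243, 0.000657 and -0.0038 for all genes. Of the other clock-controlled genes, 2 of 5, 3 of 6 and 2 of 6 passed. Wee1, a kinase that holds back entry into mitosis, rose in liver by 0.77 ± 0.13 (limma-voom q = 0.000239), the deubiquitinase gene Usp2 rose in kidney by 0.68 ± 0.14 (q = 0.0048), and Leo1, a subunit of the PAF1 complex, fell in liver (0.22 ± 0.06), lung (0.25 ± 0.05) and kidney (0.18 ± 0.04). The immediate early list had 3 of 8 in lung and 3 of 7 in kidney, all rising, with Junb at 0.39 ± 0.11 in lung (limma-voom q = 0.0402) and 0.37 ± 0.10 in kidney (q = 0.0217), and none of 7 in liver. Of the hypoxia list, Adm fell in lung (-0.27 ± 0.08) and Ndrg1 in kidney (-0.30 ± 0.06), 1 of 8 tested in each. In lung and kidney, counts of 1 of 6 and 1 of 8 are near the share of all genes and say nothing particular about those lists. None of the glucocorticoid list passed with Dbp. Without CC015, Leo1 in liver was no longer called.

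Of 8766 genes tested in all 3 tissues, 8 passed with Dbp in each, and 7 of these kept one direction. These genes were singled out after their values were seen. Ciart, Klf13 and Hectd3 rose, Nfil3, Leo1, Lgalsl and Hspa4l fell, and B3gat3 rose in lung and kidney and fell in liver. Klf13, a Krüppel-like factor, had slopes of 0.40 ± 0.07 in liver, 0.12 ± 0.04 in lung and 0.14 ± 0.04 in kidney. Nfil3 fell with Dbp by 0.41 ± 0.07 in liver (SE, limma-voom q = 0.000988), by 0.29 ± 0.08 in lung (q = 0.033) and by 0.59 ± 0.13 in kidney (q = 0.00862). Without CC015 these slopes were -0.29 ± 0.06, -0.26 ± 0.08 and -0.43 ± 0.12 (limma-voom q = 0.0103, 0.0715 and 0.0352). They describe the same pair in the same libraries as the correlation of Dbp with Nfil3 above and are not a separate result. Without CC015 that correlation was no longer called in lung and kidney, so the call there depends on the test.

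With Tef, 36 of 9498 genes passed in liver (0.379%), 1620 of 12872 in lung (12.6%) and 43 of 11208 in kidney (0.384%). Without CC015, 81 genes passed in liver, and without CC032 and CC042, 2 in kidney. The core clock list had 1 of 12 in liver, 7 of 15 in lung (5 rose and 2 fell) and none of 12 in kidney. Per2 rose with Tef in liver by 0.40 ± 0.08 (SE, limma-voom q = 0.0251) and in lung by 0.33 ± 0.09 (q = 0.0253), and Cry2 rose in lung by 0.16 ± 0.03 (q = 0.00438). In lung, 4 of 5 genes of the glucocorticoid response list rose with Tef, among them Fkbp5 by 0.32 ± 0.09 (limma-voom q = 0.0202) and Zbtb16 by 0.50 ± 0.15 (q = 0.0291). In lung 3 of 6 PAR bZIP targets (Pdxk, Alas1 and Cyp2b10) also rose, and 2 of 8 immediate early genes did. Markers of B cells moved with Tef in lung as well, where 3 of 4 fell, among them Ms4a1 by 0.46 ± 0.12 and Cd79a by 0.38 ± 0.14, and Sftpb, 1 of 4 alveolar type 2 markers, rose. The summed TPM of the 4 B cell markers ranged from 15.5 to 256 (median 98.6) in the 10 strains with the lowest Tef and from 13.2 to 119 (median 41.6) in the 10 with the highest. For the same strains, lowest Tef first, the medians were 71.8 and 39.0 for NK cell markers and 22.2 and 15.3 for T cell markers. For neutrophil markers they went the other way, at 86.7 and 115.8. No marker of these 3 lists passed with Tef in lung. The part of these cell types in the genes that moved with Tef was not tested.

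With Hlf, 1132 of 9498 genes passed in liver (11.9%), 38 of 12872 in lung (0.295%) and 163 of 11208 in kidney (1.45%). In lung 6 passed without CC015 and 3 without CC032 and CC042, and in kidney 69 without CC032 and CC042. Per2 was the 1 gene of 8766 that passed with Hlf in all 3 tissues, rising by 0.26 ± 0.09 in liver (SE, limma-voom q = 0.0567), 0.48 ± 0.08 in lung (q = 0.001) and 0.38 ± 0.09 in kidney (q = 0.0575). The core clock list had 3 of 12 in liver, 2 of 15 in lung and 3 of 12 in kidney, with Arntl falling in liver (-0.58 ± 0.18, limma-voom q = 0.0397) and Npas2 in kidney (-0.49 ± 0.14, q = 0.0889). Without CC032 and CC042, Per2 was the 1 core clock gene called in kidney, and Alas1 was not called there. Of the PAR bZIP targets, Alas1 and Pdxk rose with Hlf in liver (2 of 7) and in kidney (2 of 6). Alas1 had slopes of 0.47 ± 0.15 in liver and 0.47 ± 0.13 in kidney. Of the hypoxia list, Egln3 and Slc2a1 fell with Hlf in liver, 2 of 6. In lung the T cell marker Cd3d (1 of 3) and the neutrophil marker Retnlg (1 of 2) fell with Hlf, and in liver the hepatocyte marker Ttr (1 of 4) fell by 0.11. Over all lung libraries the summed TPM of 4 T cell markers ranged from 2.63 to 53.7 and that of 4 neutrophil markers from 6.58 to 1706, and their part was not tested.

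With Nfil3 few genes passed, 31 of 9498 in liver (0.326%), 16 of 12872 in lung (0.124%) and 30 of 11208 in kidney (0.268%). In kidney 3 of 12 core clock genes passed. Among them, Cry1 rose by 0.71 ± 0.12 (SE, limma-voom q = 0.00133), while Nr1d1, the repressor at RORE elements, fell by 0.44 ± 0.10 (q = 0.0355, not called without CC015). No core clock gene passed with Nfil3 in liver or lung, where Nr1d1 had slopes of -0.32 ± 0.12 (limma-voom q = 0.301) and -0.33 ± 0.10 (q = 0.191). Without CC015, 0, 58 and 8 genes passed in liver, lung and kidney.

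With Bhlhe40, 22 of 9498 genes passed in liver (0.232%), 0 of 12872 in lung (0%) and 117 of 11208 in kidney (1.04%). In lung, 961 genes had an unadjusted limma-voom p under 0.05, and the smallest q was 0.174. With limma-trend the count in lung was also 0. Arntl fell with Bhlhe40 in liver by 0.75 ± 0.17 (SE, limma-voom q = 0.0415), the 1 of 12 core clock genes to pass there, and none passed in kidney. The phosphatase gene Dusp1, an immediate early gene, rose in liver by 0.37 ± 0.09 (limma-voom q = 0.065) and in kidney by 0.34 ± 0.08 (q = 0.0529), and Nr4a1 rose in kidney by 0.48 ± 0.12 (q = 0.0546). Alas1 rose with Bhlhe40 in kidney by 0.49 ± 0.13 (limma-voom q = 0.0616). Of the marker lists, no gene passed with Dbp, Nfil3 or Bhlhe40 in any tissue.

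The genes most like each member were ranked by the mean Spearman's rho over the 3 tissues, 47 strains each, among 8451 genes other than the member with a median of at least 1 CPM in each tissue. These are descriptions, since all genes of a library share its depth and handling. Closest to Dbp was Ciart, with rho of 0.705 in liver, 0.474 in lung and 0.777 in kidney (mean 0.652), followed by Klf13 (0.496) and Usp22 (0.490). Most opposed to Dbp was Ypel2, with rho of -0.751, -0.443 and -0.748 (mean -0.647), followed by Leo1 (-0.529) and Ncbp2 (-0.484). For Tef the closest were Stk19 (0.447), Dbp (0.443) and Ciart (0.441), and the most opposed Atad1 (-0.425), Hdac2 (-0.400) and Cul2 (-0.395). For Hlf the closest were Per2 (0.501), Rere (0.488) and Ylpm1 (0.486), and the most opposed Sec13 (-0.478), Tmem147 (-0.467) and Rps20 (-0.459). Nfil3 had Ube2g2 (0.454), Ahsa1 (0.436) and Kpna1 (0.403) closest, and Dbp (-0.475), Nr1d1 (-0.410) and Trdmt1 (-0.391) most opposed. Bhlhe40 had Hlf (0.440), Klhdc7a (0.400) and Klf10 (0.387) closest, and Pole4 (-0.359), Ifngr1 (-0.350) and Itgb1bp1 (-0.343) most opposed, with rho for Klf10 of 0.753 in liver and 0.035 in lung.

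Strain CC015 stood apart in all 3 tissues, and was singled out after its values were seen. Its Dbp had 22 counts in the liver library (4.02 CPM), 3 in lung (1.19 CPM) and 19 in kidney (2.43 CPM), where the medians over strains were 43.2, 19.2 and 24.3 CPM. The lung value, at 3 counts, is not resolved from 0. Its Nfil3 was 76.9 CPM in liver, 9.96 in lung and 23.6 in kidney, against medians of 14.8, 3.21 and 2.66. Dbp was the lowest and Nfil3 the highest of 47 in every tissue, and the next values for Nfil3 were 31.5, 9.06 and 10.3. In lung the rank of Nfil3 depended on the scaling, since on TPM as deposited CC015 had 5.81, at rank 14 from the lowest and below the median of 7.72. Dbp was lowest in each tissue on TPM too, and Nfil3 highest in liver and kidney. The ranks of the other members varied between tissues. From the lowest, Hlf ranked 3 in liver, 38 in lung and 18 in kidney, Tef 2, 23 and 10, and Bhlhe40 9, 1 and 25. Bhlhe40 in lung, at 20.3 CPM, was the lowest of 47, also on TPM (7.53).

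Some core clock genes of CC015 stood apart with them, and others did not in every tissue. Nr1d1 was the lowest of 47 in each tissue, at 3.10 CPM in liver, 7.96 in lung and 1.79 in kidney, where the medians were 63.0, 63.4 and 23.1. Arntl ranked 43, 46 and 45 from the lowest in liver, lung and kidney, at 3.65, 2.39 and 1.54 CPM against medians of 1.03, 0.603 and 0.510. Cry1 was the highest of 47 in liver (64.6 CPM, median 9.87) and kidney (14.98 CPM, median 2.85), and ranked 41 in lung. On TPM, Cry1 in lung ranked 3 and Arntl in lung 21 from the lowest, while Nr1d1 stayed lowest in each tissue. Per2 was near the middle in liver, at rank 22, and at 32 in kidney and 41 in lung. From the lowest, Ciart ranked 16 in liver, 34 in lung and 1 in kidney, and Nr1d2 27, 1 and 2. The total counts of these 3 libraries, 8306436, 10446736 and 10333317, ranked 18, 30 and 31 of 47. As there is 1 mouse of CC015, strain, individual and hour of death cannot be told apart.

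Other strains shared an extreme rank between tissues. For Dbp, CC015, CC053 and CC055 were among the 10 lowest in all 3 tissues, and CC003, CC024 and CC025 among the 10 highest. For Nfil3, CC010, CC015 and CC055 were among the 10 highest in all 3 tissues and no strain was among the 10 lowest in all. For Tef, CC012 was among the 10 lowest in all 3 tissues and no strain among the 10 highest. For Hlf, CC001 was among the 10 lowest and CC049 among the 10 highest in all 3. For Bhlhe40 no strain was among the 10 lowest or the 10 highest in all 3 tissues. The same count over all genes was not computed.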

How the data were processed

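RNA-seq of liver, lung and kidney from 47 CC strains was analysed, with groups taken from the labels. The authors removed low-quality and adapter reads (TagDust), aligned 50-base single-end reads with STAR 2.5.3a to pseudo-genomes of each strain built on Build37 (mm9) with RefSeq annotation, and quantified uniquely aligned reads with RSEM. The expected counts deposited by the authors were rounded to whole numbers, of which 25 values changed. The TPM deposited by the authors are scaled by transcript length and library. The FPKM deposited by the authors were read but not used. The 5 sequencing batches of the study's methods are not among the labels and could not be fitted.

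A gene was kept if it exceeded 1 CPM in 30% of libraries or more. Counts were scaled by TMM (edgeR 4.0.16) and fitted in R 4.3.3 by limma-voom (limma 3.58.1). Strain was a block between tissues, since the tissues of a strain come from the same mouse (median correlation of genes between tissues 0.136 to 0.182). Correlations were taken over rank inverse normal values of TPM with TMM within a tissue, by 100000 permutations, of which 1e-05 is the lowest p possible. All p-values adjusted by Benjamini-Hochberg cover all genes tested, which replaces an adjustment over the 18 or 45 correlations alone, and the 45 tissue differences are adjusted among themselves. DESeq2 1.42.0, edgeR's quasi-likelihood test and other scalings, filters and pseudocounts were alternatives. With 1 mouse per strain, p-values measure the spread between single mice. Counting intervals were not computed, and values at or under 3 counts were treated as not resolved. Scripts were tested on simulated data. Other steps ran in Python 3.11.15 (scipy 1.17.1, numpy 2.4.6, matplotlib 3.10.9, pandas 2.3.3).

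The members, gene lists and tests were chosen with earlier results of these data known. The genes named are the members, up to 4 called genes of a list with the smallest q in a fit, genes a sentence counts, tissue markers, and the 3 most and least alike genes of each member, apart from those said to be singled out later. Bhlhe41 has values for this last rule but, as it was not resolved, none are given. Some genes of the lists enter the counts but are not reported here by name.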

Additional observations from a re-analysis of the deposited data

How the results depend on the processing

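Without strain as a replicate block, the count of members called was 2 for liver against lung, where Hlf was lost, and stayed at 1 for lung against kidney and 2 for liver against kidney, so the pairing changed 1 call. Liver against lung lost all 3 calls with total counts, on log2(TPM + 0.1) and on log2(TPM + 1), where 1, 1 and 0 members were called, the 1 being Tef, lower in liver. With q alone, 4 members passed for lung against kidney and 5 for liver against kidney. Directions turned as follows. For liver against lung, Dbp was -0.40 with total counts, -0.48 on log2(TPM + 0.1) and -0.48 on log2(TPM + 1), and Hlf -0.37, -0.49 and -0.46. Tef, near 0, was -1.32, -1.38 and -0.90 on these scales, -0.23 with DESeq2, -0.21 with DESeq2 size factors and -0.0029 without CC032 and CC042. Dbp was 0.19, 0.26 and 0.27 for lung against kidney, and -0.20, -0.21 and -0.21 for liver against kidney. Relative to the median of all genes, Dbp and Hlf kept their signs with total counts and on log2(TPM + 1). Subtracting that median takes most of a scaling factor out, so these signs cannot decide between the scalings.

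Of 15 correlations between tissues, 6 passed as Pearson correlations of log2 CPM and 1 on TPM without TMM. Of 30 member pairs, 21 passed on TPM without TMM, where most correlations with all genes did too, and 2 without the 2 farthest strains. The sign of uncalled correlations turned on TPM without TMM for Tef between liver and kidney (0.228), Hlf between liver and lung (-0.069), Tef with Nfil3 (0.0086, 0.128 and 0.254 in liver, lung and kidney), Hlf with Nfil3 (0.237 in liver, 0.094 in lung) and Nfil3 with Bhlhe40 (0.118 in liver, 0.432 in lung). It turned on log2 CPM for Tef between liver and kidney (0.0034), Tef with Bhlhe40 in lung (-0.016) and Tef with Nfil3 in kidney (0.043), without CC015 for the last (0.023), and without the 2 farthest strains for Tef between liver and kidney (0.061), Nfil3 with Bhlhe40 in lung (0.0017) and kidney (-0.054) and Hlf with Nfil3 in kidney (-0.083).

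Genes that moved with a member, 5840 over 15 fits, fell to 3185 with no low-count filter, where more genes were tested. That filter gave 354 genes for Dbp in lung, 671 in kidney, 15 and 19 for Tef in liver and kidney, 715, 2 and 4 for Hlf in liver, lung and kidney, 4 for Nfil3 in lung and 58 for Bhlhe40 in kidney. With limma-trend the counts were 2407 and 544 for Dbp in lung and kidney, 82 and 25 for Tef in liver and kidney, 2 for Hlf in lung, and 87 and 39 for Nfil3 in liver and lung. Leaving out CC015, added after seeing the data, gave 681 for Dbp in lung, 81 for Tef in liver, 6 for Hlf in lung, and 0, 58 and 8 for Nfil3 in liver, lung and kidney. Leaving out CC032 and CC042 gave 2 for Tef in kidney, 3 for Hlf in lung and 69 for Hlf in kidney. The cause of these changes in count was not tested. No difference between tissues in a pair's correlation passed under any setting run.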
